A study of Homo sapiens with 6 samples.

Results

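The strongest H3K27me3 peaks of a pair of small cell lung cancer lines were taken from the deposited peak lists as all peaks on chromosomes 1 to 22 and X with a score of 300 or more. There were 994 such peaks of 37853 in H69M and 270 of 21638 in H69, which makes 1264 of 59491 in all. The score is the number that the authors' peak caller wrote for each peak, and since it chose the members, their numbers and scores describe the choice and test nothing. Of these peaks, 51 in H69M and 25 in H69 lay in the windows of 3 multicopy arrays on chromosomes 8, 18 and 1 and are given apart, and 943 and 245 lay elsewhere. In H69, 21 of the 25 lay in the chromosome 8 array, 4 in the chromosome 18 array and 0 in the chromosome 1 array. H69M is a line derived from H69 (NCI-H69), and both are established lines of small cell lung cancer, a neuroendocrine tumour of the lung. Each line gave 1 H3K27me3 library (antibody clone C36B1), 1 H3K27ac library (antibody ab4729) and 1 input library, and the inputs were not analysed here. Every value below therefore has no replicate check, and the read depth behind it is unknown. No p-value between the lines can be had from 1 library per line.

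H3K27me3 is trimethylation of lysine 27 on histone H3. Polycomb repressive complex 2 writes it, largely over CpG-rich promoters of genes that a cell type does not use, among them many regulators of embryonic development. H3K27ac is acetylation of the same lysine and marks active promoters and enhancers, so a single histone tail cannot carry both. A tandem array is a run of near-identical copies of a DNA unit. Reads from such copies are hard to place, and a genome build may list fewer copies than a cell holds.

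Peaks are positions on the genome build hg19. No annotation of that build was used, so the genes named beside peaks come from general knowledge of the hg19 map, were attached after the scores had been seen, and enter no count of peaks. The 32 genes so named were looked up by symbol in a RefSeq promoter table of another build, GRCh38.p14, which holds 250 bases before and 50 after each gene start. An entry was found for 24 of them, with 42 promoters, of which 33 (78.6%) were CpG-rich, meaning a GC content of 50% or more and an observed-to-expected CpG ratio of 0.6 or more, counted on the printed strand. Of all 35116 promoters in the table, 46.9% met both limits, and the median promoter held 14 CpG. Counted by gene, 23 of the 24 had at least 1 such promoter, against 50.2% of the 27305 genes in the table. The 32 genes were picked by hand, so these shares describe them only. The promoters of 5 genes beside the highest peaks outside the arrays are shown with each CpG in capitals, so that the density of the dinucleotide can be seen.
LHX4 promoter, chr1:180230014-180230313, plus strand: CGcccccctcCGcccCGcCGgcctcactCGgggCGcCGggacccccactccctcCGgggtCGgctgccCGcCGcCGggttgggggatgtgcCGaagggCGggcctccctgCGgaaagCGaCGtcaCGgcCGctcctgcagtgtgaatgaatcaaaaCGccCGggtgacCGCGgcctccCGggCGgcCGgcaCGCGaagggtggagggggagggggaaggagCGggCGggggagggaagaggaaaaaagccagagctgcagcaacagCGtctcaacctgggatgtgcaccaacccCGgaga
PIEZO2 promoter, chr18:11149520-11149819, minus strand: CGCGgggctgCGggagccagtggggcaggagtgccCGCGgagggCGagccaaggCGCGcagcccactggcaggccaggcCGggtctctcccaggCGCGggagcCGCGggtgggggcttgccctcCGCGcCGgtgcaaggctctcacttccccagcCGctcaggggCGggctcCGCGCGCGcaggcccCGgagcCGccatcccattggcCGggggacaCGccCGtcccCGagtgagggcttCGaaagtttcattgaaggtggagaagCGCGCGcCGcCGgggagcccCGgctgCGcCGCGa
GATA6 promoter, chr18:22169339-22169638, plus strand: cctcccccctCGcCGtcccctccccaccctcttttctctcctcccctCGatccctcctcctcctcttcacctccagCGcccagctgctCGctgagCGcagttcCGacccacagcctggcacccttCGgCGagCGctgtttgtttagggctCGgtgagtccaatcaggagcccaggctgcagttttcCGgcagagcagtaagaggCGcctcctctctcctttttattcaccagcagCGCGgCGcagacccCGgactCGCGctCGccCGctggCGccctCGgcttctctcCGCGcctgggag
TDRD10 promoter, chr1:154501969-154502268, plus strand: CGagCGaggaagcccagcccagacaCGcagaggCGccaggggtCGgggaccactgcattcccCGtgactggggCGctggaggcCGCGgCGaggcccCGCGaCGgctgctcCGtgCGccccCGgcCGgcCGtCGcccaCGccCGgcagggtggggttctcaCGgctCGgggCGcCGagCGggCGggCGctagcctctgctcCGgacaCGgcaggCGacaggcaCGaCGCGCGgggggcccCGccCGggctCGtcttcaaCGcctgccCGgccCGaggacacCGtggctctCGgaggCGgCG
METRNL promoter, chr17:83080896-83081195, plus strand: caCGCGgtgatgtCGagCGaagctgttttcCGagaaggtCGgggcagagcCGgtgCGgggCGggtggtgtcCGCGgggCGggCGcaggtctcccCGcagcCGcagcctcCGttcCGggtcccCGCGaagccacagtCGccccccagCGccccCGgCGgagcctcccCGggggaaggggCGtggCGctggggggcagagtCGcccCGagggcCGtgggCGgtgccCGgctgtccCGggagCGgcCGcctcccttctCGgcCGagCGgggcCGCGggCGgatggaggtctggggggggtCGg
They hold 32 (LHX4), 38 (PIEZO2), 25 (GATA6), 45 (TDRD10) and 41 (METRNL) CpG in 300 bases. ZNF595, beside the highest H69M peak outside the arrays, was the gene with an entry but no CpG-rich promoter, with 12 CpG and a ratio of 0.48.

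The peaks just inside the limit scored 300.25, 300.34 and 300.97 in H69M and 301.12, 301.15 and 302.77 in H69. Those just outside scored 299.99, 299.97 and 299.64 in H69M and 299.46, 298.37 and 298.2 in H69. Scores start at 50 in the H69M list and at 50.01 in the H69 list and 10 H69M peaks share the list's highest value, 3100, so they cannot be ranked among themselves. In H69, 2 peaks stood at 3100 and 1, from 86786144 to 86789912 on chromosome 8, at 3233.06. Strong peaks had a median score of 464 in H69M and 418 in H69. They were wide, with a median of 818 bp in H69M and 882.5 bp in H69, whereas the medians of the whole lists were 156 and 185 bp. They made up 2.63% of the peaks and 13.7% of the covered length in H69M, and 1.25% of the peaks and 6.19% of the covered length in H69.

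H69M had more strong peaks than H69 on every one of the 23 chromosomes compared. Chromosome 19 held most outside the arrays in both lines, 115 in H69M and 37 in H69. It also had the longest lists, 5003 peaks in H69M and 3509 in H69. Strong peaks were thus 2.30% of its H69M list and 1.05% of its H69 list. Over all chromosomes the shares outside the arrays were 2.49% in H69M and 1.13% in H69, so the counts show no concentration there. By number, chromosome 1 followed in H69M with 88, against 20 in H69, and chromosome 7 held 74 in H69M and 22 in H69. On chromosome 21 the numbers were 49 in H69M and 7 in H69, and strong peaks were 5.53% of that chromosome's H69M list, the highest share of any chromosome in H69M. Chromosomes 4 and X had 29 and 5 strong peaks in H69M and 0 in H69. Their H69 lists were short, 261 and 103 peaks, against 808 and 534 in H69M. Strong peaks were 1.25% of the whole H69 list, so a count of 0 in lists that short says little. The plot by chromosome shows that the arrays take a large part of the strong H69 peaks on chromosome 8, 21 of 31, whereas in H69M they take 37 of 110.

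**Figure D1:**
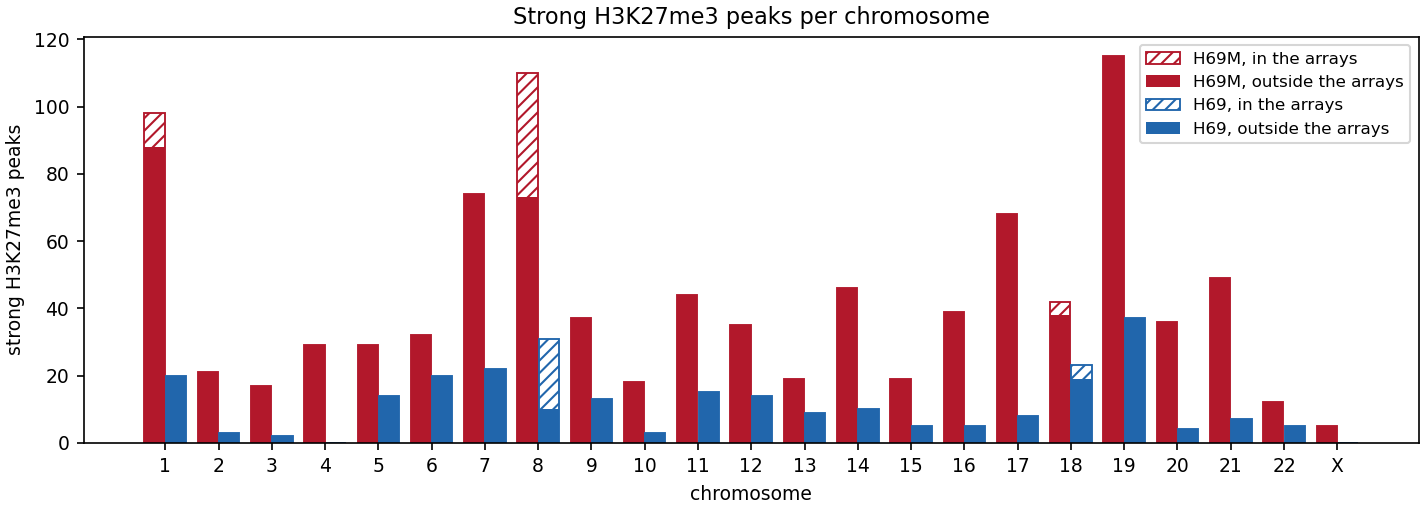
Number of strong H3K27me3 peaks (score 300 or more) on each chromosome, H69M bars left of H69 bars, with peaks in the 3 arrays hatched. H69M bars are higher on every chromosome, and the tallest, on chromosome 19, stands at 115 in H69M and 37 in H69. Bars are counts, and chromosome 19 also has the longest peak lists.

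The next comparison asked whether the other line listed a peak at the same place. Of the strong H69M peaks, 828 were overlapped by a H69 peak by at least 1 bp (83.3%, exact 95% interval 80.8 to 85.6), and over the whole H69M list the share was 18.9%. Of the strong H69 peaks, 267 were overlapped by a H69M peak (98.9%, 96.8 to 99.8), where the whole H69 list gave 32.6%. Wide peaks meet other peaks more easily. With the middle base of the strong peak alone, the shares were 59.05% in H69M and 92.6% in H69. No share over the lists was computed on the middle base, so the part of peak width in the difference from the lists was not tested. These intervals, like all others here, hold for counting error alone, and neighbouring peaks are not independent.

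A strong peak of the other line lay under 214 of the 994 H69M peaks (21.5%, 19.01 to 24.2, where the H69M list gave 1.07%) and under 212 of the 270 H69 peaks (78.5%, 73.1 to 83.3, where the H69 list gave 6.37%). Below the limit, 397 strong H69M peaks met a H69 peak scored from 100 to under 300, a further 217 met only one under 100, and 166 met none. For the strong H69 peaks the same numbers were 45, 10 and 3. Of the strong H69 peaks, 0 had no H69M peak within 5 kb, which allows a share of up to 1.36%, whereas 95 strong H69M peaks had no H69 peak within 5 kb (9.56%, 7.80 to 11.6, with 39.5% over the list). The H69 list gave 29.8% for the same distance.

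Strong peaks were also paired with their counterparts. Among the 828 overlapped strong H69M peaks the median score was 487 in H69M and 178 for the highest overlapping H69 peak, and H69M was higher at 782. These peaks were chosen by their H69M score, which largely fixes that direction. Among the 267 overlapped strong H69 peaks the median was 716 for the highest overlapping H69M peak and 419 in H69, and H69M was higher at 179. These peaks were chosen by their H69 score. The H69M value was the highest of all overlapping peaks, and 111 of the 267 met more than 1, which raises it. Neither direction is therefore a test between the lines. The plot of paired scores shows strong H69M peaks spread far below the diagonal and strong H69 peaks mostly above it. Scores also depend on read depth, which is unknown, so depth and the line cannot be told apart here.

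**Figure D2:**
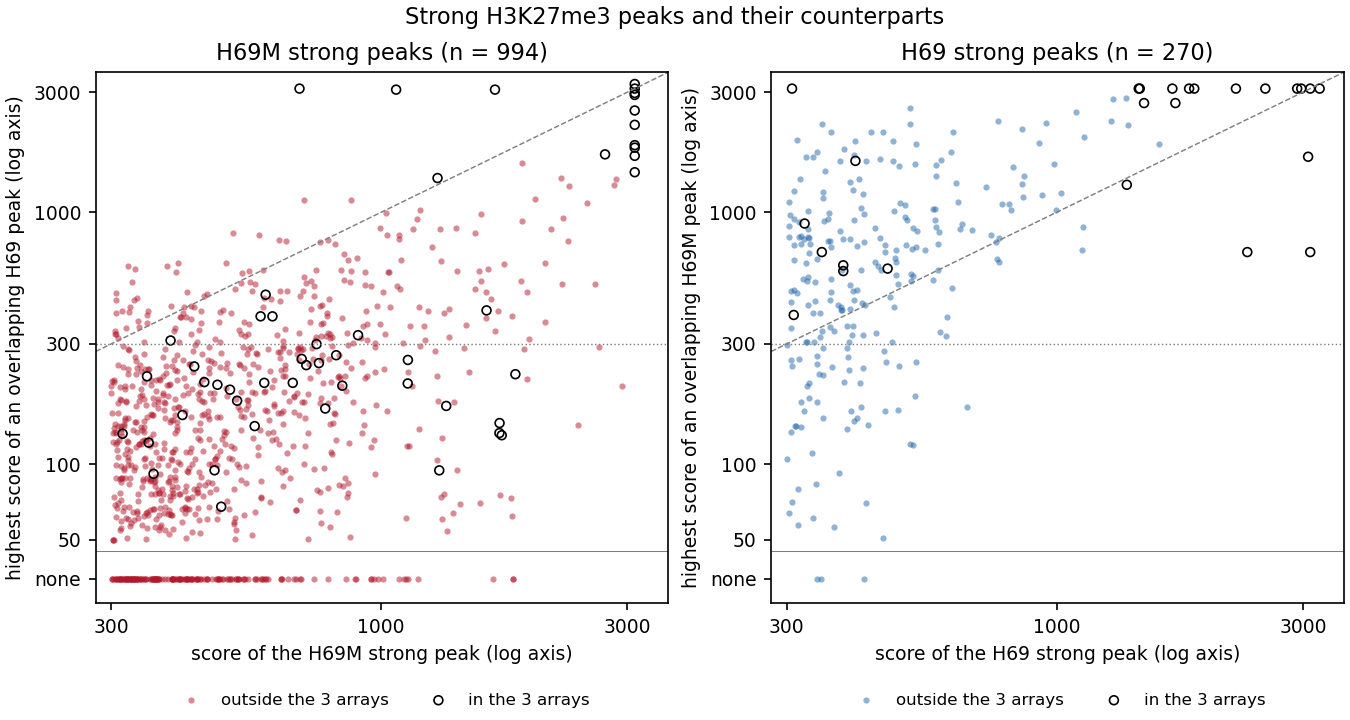
Score of each strong peak (horizontal, log axis) against the highest score of an overlapping peak of the other line (vertical, log axis), for 994 H69M peaks on the left and 270 H69 peaks on the right; open circles lie in the 3 arrays, the dashed line is equality, the dotted line is the limit of 300, and "none" holds peaks with no overlap. On the left 166 points lie at "none", on the right 3.

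Strong peaks joined within 5 kb formed 709 loci outside the arrays. Both lines had a strong peak in 157 of them (22.1%, 19.1 to 25.4), H69M alone in 511 and H69 alone in 41. Of the 511, H69 listed a weaker peak in 403 and none in 108. Of the 41, H69M listed a weaker peak in 39 and none in 2. In the 157 loci strong in both, the median of the highest score was 798 in H69M and 425 in H69, and H69M was higher in 133. Another peak of the same list lay within 10 kb of 97.6% of the strong H69M peaks (85.2% over the list) and of 97.8% of the strong H69 peaks (75.6% over the list). A locus was shared with another strong peak of their own line by 432 of 943 strong H69M peaks (45.8%) and 76 of 245 strong H69 peaks (31.0%). No share over the whole lists was computed on this joining rule. Such a share also goes up with the number of peaks, so these values do not show clustering beyond that of the lists.

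Some of the highest peaks lay at GATA6, LHX4 and OLIG2, which encode transcription factors. At GATA6, a zinc finger factor of endoderm and heart, the peak at 19744955 to 19747749 on chromosome 18 scored 2315.47 in H69M, against 1276.05 for the matching H69 peak. A neighbouring peak from 19750916 to 19752537 scored 1871.77 in H69M, and its counterpart from 19750939 to 19752669 scored 1576.44 in H69, the highest H69 score outside the arrays. At LHX4, a LIM homeodomain factor of pituitary and motor neuron development, the peak from 180203338 to 180205273 on chromosome 1 scored 2846.76 in H69M and its counterpart 1360.61 in H69. At OLIG2, a basic helix-loop-helix factor of oligodendrocytes and motor neurons, the peak on chromosome 21 scored 1988.26 in H69M and 1131.33 in H69 (34398932 to 34400456). All of these loci were strong in both lines, with the higher score in H69M.

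Genes of other kinds were also among the 10 highest outside the arrays of each line. PIEZO2, a mechanically gated ion channel, carried a peak of 2828.91 in H69M (chromosome 18, 11148124 to 11150487) and of 1285.88 in H69. GNAL, the G protein alpha subunit of olfactory neurons, carried 2254.51 in H69M (11750323 to 11752294) and 953.63 in H69. ZNF595, a zinc finger gene near the end of chromosome 4, carried the highest H69M score outside the arrays, 2926.21 (52777 to 55421), where the highest overlapping H69 peak scored 203.5. At FAM163A on chromosome 1 the scores were 2402.83 in H69M (179711428 to 179714050) and 143.52 in H69. ZNF595 and FAM163A were thus far above the limit in H69M and below it in H69. Peaks with no gene name here were also among the 10 highest. The peak on chromosome 2 from 91775038 to 91778765 scored 2643.47 in H69M, and the highest overlapping H69 peak 291.62. The peak on chromosome 8 from 686679 to 689579 scored 2500.05 in H69M and its counterpart 1088.32 in H69.

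Among the 10 highest H69 peaks were some where the lines were closer or reversed. At TDRD10, a Tudor domain gene, the peak from 154474640 to 154476069 on chromosome 1 met 2226.34 in H69M and scored 1374.37 in H69. At SLC22A3, an organic cation transporter, the scores were 874.95 in H69M and 1123.35 in H69 (chromosome 6, 160768644 to 160770151). At METRNL, which encodes a secreted protein, they were 710.49 in H69M and 1119.72 in H69 (chromosome 17, 81038500 to 81039782). At COL6A2, a chain of collagen VI, they were 1192.07 in H69M and 1020.92 in H69 (chromosome 21, 47517072 to 47519248), and a H3K27ac peak of 2006.61 overlapped the same place in H69M. No H3K27ac peak of H69 did so.

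The loci with most strong peaks were blocks of many neighbouring peaks. The densest, on chromosome 19 from 8851437 to 8897535, held 20 strong peaks in H69M and 12 in H69, with highest scores of 2304.11 in H69M and 864.93 in H69, and no H3K27ac peak in either line. No gene is named there. Along this block the H3K27me3 profile repeated itself. The correlation of log10 score in 100 bp bins with itself peaked at shifts of 7.6 and 14.9 kb in H69M (r = 0.29 and 0.32) and of 7.5 and 15.1 kb in H69 (r = 0.34 and 0.28), over up to 386 bins that share 1 library per line. A block on chromosome 1 from 2614886 to 2630842 held 8 strong peaks in H69M and 4 in H69, with highest scores of 2596.72 in H69M and 856.37 in H69, and no H3K27ac peak in either line. A block on chromosome 4 from 49281042 to 49333605 held 11 strong peaks in H69M, with a highest score of 1556.31, and 0 in H69, where the highest of 6 peaks scored 82.7.

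Some further dense loci lay at genes that could be named, which were picked after their values were seen. The locus at GATA4, the partner of GATA6 in heart and endoderm (chromosome 8, 11549932 to 11568032), held 10 strong peaks in H69M and 2 in H69, with highest scores of 697.46 in H69M and 464.56 in H69. At UNCX, a homeodomain factor of the somites (chromosome 7, 1269001 to 1281668), there were 7 in H69M and 3 in H69. The locus at EN2, a homeodomain factor of the midbrain and hindbrain (chromosome 7, 155245868 to 155252606), had 6 in H69M and 2 in H69. FOXF2, a forkhead factor of mesenchyme, had 4 in H69M and 3 in H69 (chromosome 6, 1382926 to 1391678). WT1, a zinc finger factor of kidney and gonad, and IRX4, an Iroquois homeodomain factor of the heart ventricle, had 3 in each line. At DIO3, an imprinted gene for an enzyme that inactivates thyroid hormone (chromosome 14, 102025763 to 102031174), there were 3 in each line, with highest scores of 1633.63 in H69M and 453.99 in H69. Other loci with as many strong peaks have no gene name here, such as chromosome 19 from 50594943 to 50614776, with 6 in H69M and 0 in H69, and chromosome 7 from 63212590 to 63223921, with 6 in H69M and no peak in H69. None of the 7 named loci carried a H3K27ac peak in either line, and over all 709 loci 13.8% carried one in H69M and 10.9% in H69, so such a count of 7 says little.

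A dense locus on chromosome 1, from 161411658 to 161442520, lies in a region known for repeated transfer RNA genes, and RefSeq's gene order on GRCh38.p14 has a run of 24 tRNA genes with no other gene between them on this chromosome, matched by name and not by position. It held 10 strong peaks in H69M and 0 in H69, with highest scores of 1339.38 in H69M and 138.39 in H69. The profile matched itself best at a shift of 7.4 kb in both lines, with r = 0.53 in H69M and 0.65 in H69 over 235 bins. H3K27ac was listed here too, 4 peaks of up to 258.8 in H69M and 4 of up to 532.41 in H69. By number of strong peaks it was the densest locus with H3K27ac in it.

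The comparison with H3K27ac used a mark that had no part in choosing the members. In H69M, 90 strong peaks were overlapped by a H3K27ac peak of the same line (9.05%, 7.34 to 11.01), against 3.5% of the whole list. In H69 the number was 5 (1.85%, 0.604 to 4.27), against 1.87% of the list, and at a score limit of 200 it was 4.19% of 620 peaks. H3K27ac of the other line overlapped 97 strong H69M peaks (9.76%, 7.98 to 11.8, with 2.78% over the list) and 32 strong H69 peaks (11.9%, 8.25 to 16.3, with 4.63% over the list). The same 270 H69 peaks enter both H69 shares, and each H3K27ac list is 1 library. With the middle base of the strong peak alone, the shares under H3K27ac of the same line were 7.75% in H69M and 1.48% in H69. No share over the lists was computed that way, so the part of peak width in the difference from the lists was not tested. The H3K27ac lists were of unequal length, 51091 peaks in H69M and 38255 in H69, and the part of list length was not tested.

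**Figure D3:**
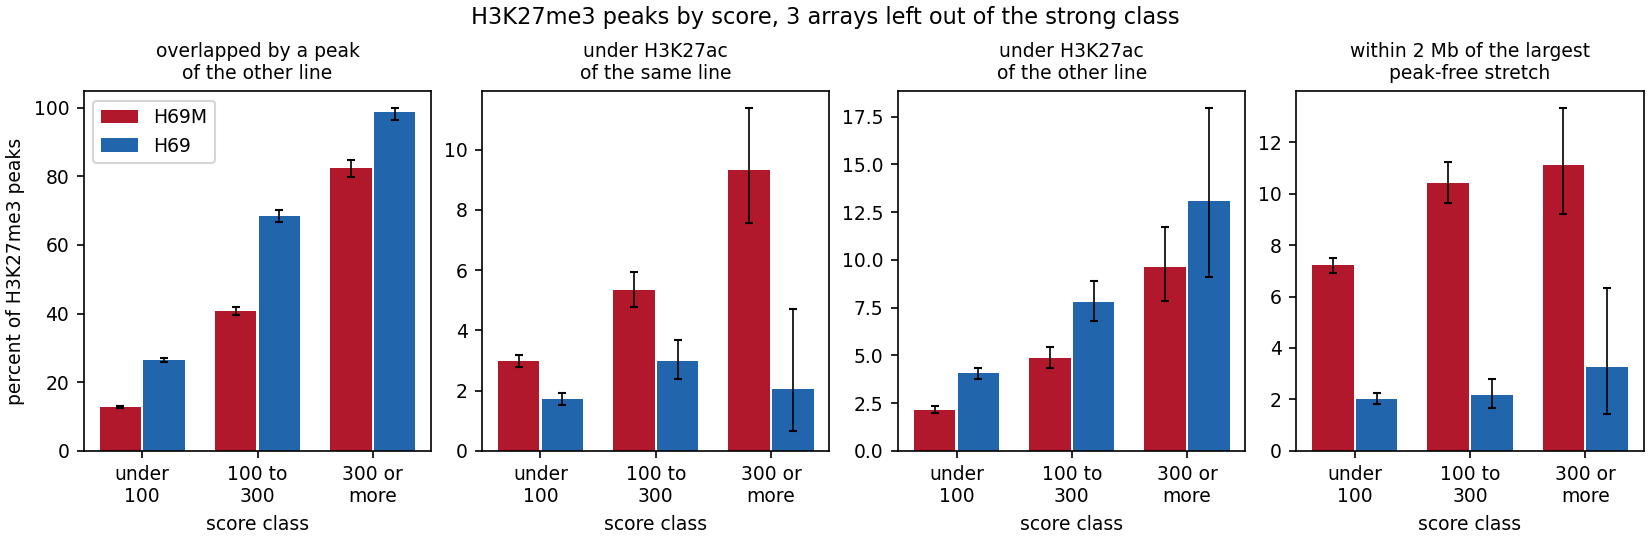
Percent of H3K27me3 peaks of each score class (under 100, 100 to 300, and 300 or more outside the arrays) that meet each of 4 criteria, H69M left of H69, with exact 95% intervals for counting error. Overlap with the other line goes up with the score class in both lines, and overlap with H3K27ac of the same line is 9.33% in H69M and 2.04% in H69 in the strong class, where the H69 share of the 100 to 300 class is 2.98%.

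The highest strong H69M peaks under H3K27ac of H69M included NPBWR1, a neuropeptide receptor gene. It carried H3K27me3 of 1894.25 and H3K27ac of 427.01 in H69M (chromosome 8, 53852257 to 53854174). The GATA6 peak from 19750916 to 19752537 carried H3K27ac of 298.85 in H69M. A peak on chromosome 9 from 66454653 to 66458779 carried 1795.5 of H3K27me3 and 2988.57 of H3K27ac in H69M, and H3K27ac of 3100 was listed there in H69. Peaks at 17516941 on chromosome 22 and 68408427 on chromosome 9 carried H3K27me3 of 1479.79 and 1375.78 in H69M. Their H3K27ac was 136.82 and 241.63 in H69M. In H69 the highest such peak, at 148853403 on chromosome 1, carried H3K27me3 of 856.84 and H3K27ac of 115.59. Peaks that carry both marks in 1 line come from a population of cells, and whether single cells carry both was not tested.

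Among the 41 loci strong in H69 alone, 16 carried a H3K27ac peak in H69M (39.0%, 24.2 to 55.5) and 1 carried one in H69 (2.44%, 0.0617 to 12.9). Of these 16 loci, 15 had H3K27ac in H69M without any in H69. Over all 709 loci the shares were 13.8% in H69M and 10.9% in H69. For the 157 loci strong in both lines the numbers were 18 in H69M (11.5%) and 9 in H69 (5.73%). For the 511 strong in H69M alone they were 64 in H69M (12.5%) and 67 in H69 (13.1%). The H3K27ac list was longer in H69M, 51091 peaks against 38255 in H69, and the part of list length was not tested. Of those 511, 35 had H3K27ac in both lines, 29 in H69M alone and 32 in H69 alone. The loci strong in 1 line were defined from H3K27me3 of both lines, and H3K27ac was not used.

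At YAP1, a transcriptional co-activator of the Hippo pathway, H3K27me3 scored 70.28 in H69M and 427.16 in H69, while H3K27ac reached 3100 in H69M and had no peak in H69 (chromosome 11, 101980630 to 101981701). IGF2BP1, an RNA-binding protein of fetal tissue, had H3K27me3 of 162.01 in H69M and 400.06 in H69, with H3K27ac of 3100 in H69M alone. NAV2, a neuron navigator gene, had 56.49 in H69M and 370.11 in H69, also with H3K27ac of 3100 in H69M alone. These 3 genes had strong H3K27me3 in H69 and H3K27ac of 3100 in H69M. IRS2, an adaptor of the insulin receptor, was the locus with H3K27ac in both lines, at 2119.67 in H69M and 103.15 in H69, with H3K27me3 of 119.67 in H69M and 519.58 in H69.

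Further loci of the 15 were at genes that could be named. TUBB6, a beta tubulin, had H3K27ac of 2065.38 in H69M, with H3K27me3 of 167.94 in H69M and 418.93 in H69. COL5A1, a chain of collagen V, had H3K27ac of 1103.45 in H69M, with H3K27me3 of 51.01 in H69M and 460.27 in H69. The H3K27ac scores at GAS6, a ligand of the TAM receptors, TGFBI, a matrix protein induced by TGF-beta, and SLIT3, a guidance ligand, were lower, at 266.95, 199.47 and 147.26 in H69M. Their H3K27me3 scores were 236.06, 70.9 and 253.34 in H69M, and 396.22, 306.93 and 534.6 in H69. These genes were named after their values were seen. The other 7 loci have no gene name here, and their H3K27ac ran from 56.96 to 3100 in H69M. The highest of them were on chromosome 6 at 143268179, with H3K27ac of 3100 in H69M, and on chromosome 13 at 112709711, with 2249.34 in H69M, and neither had H3K27ac in H69.

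The opposite arrangement was found at other places. At GDNF, a neurotrophic factor, H3K27me3 scored 866.97 in H69M and 121.54 in H69, and H3K27ac had no peak in H69M and 3100 in H69 (chromosome 5, 37836582 to 37840019). SYNDIG1, a synapse protein, had H3K27me3 of 1703.06 in H69M and 75.66 in H69, with H3K27ac of 1657.24 in H69 alone. THBD, the endothelial anticoagulant receptor thrombomodulin, had H3K27me3 of 969.53 in H69M and no peak in H69, with H3K27ac of 478.52 in H69 alone (chromosome 20, 23028146 to 23030571). At SOCS2, an inhibitor of cytokine signalling, H3K27me3 scored 531.32 in H69M with none listed in H69, but H3K27ac was high in both, at 2322.81 in H69M and 3100 in H69. The plot of loci strong in 1 line shows how many of them had no H3K27ac peak of the other line.

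**Figure D4:**
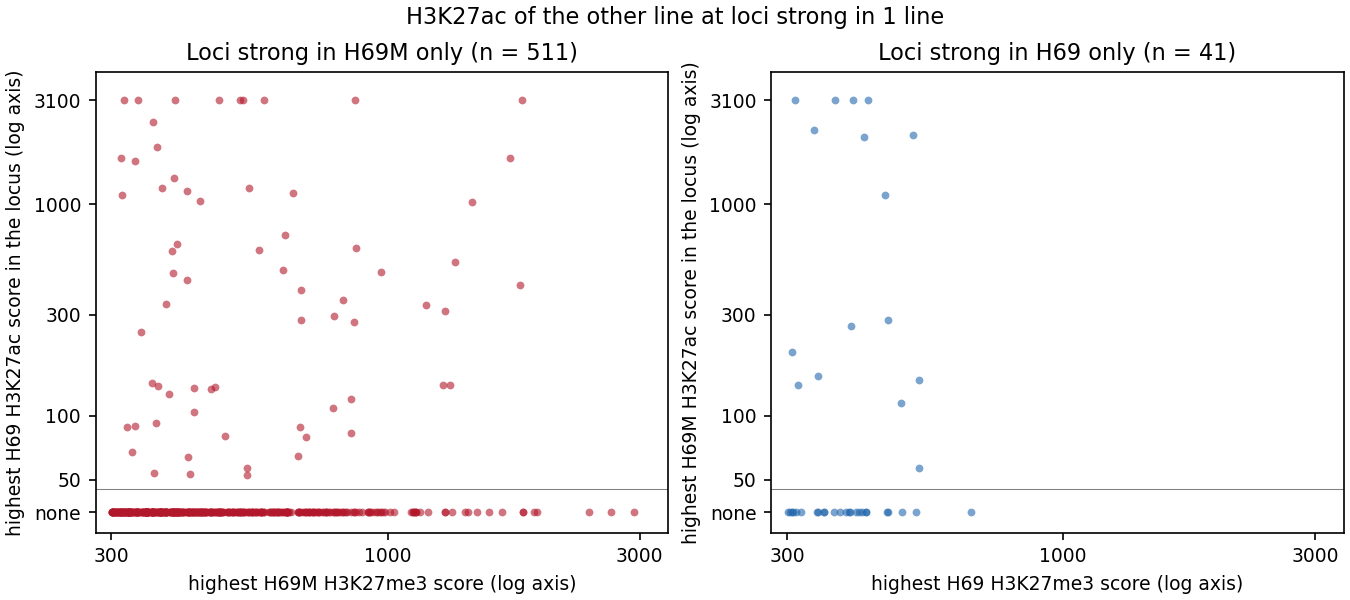
Highest H3K27me3 score of each locus strong in 1 line (horizontal, log axis) against the highest H3K27ac score of the other line in it (vertical, log axis), for 511 loci strong in H69M alone on the left and 41 strong in H69 alone on the right; "none" holds loci with no H3K27ac peak of the other line. H69 H3K27ac is listed at 67 of the 511 and H69M H3K27ac at 16 of the 41.

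Every chromosome has a longest stretch without any peak of the 4 lists, here called its peak-free stretch, and what it holds was not read from an annotation. Of the strong H69M peaks, 105 lay within 2 Mb of it (10.6%, 8.72 to 12.6, with 7.79% over the list), and of the strong H69 peaks 8 (2.96%, 1.29 to 5.75, with 2.06% over the list). Of the 108 loci strong in H69M with no H69 peak, 41 lay there (38.0%, 28.8 to 47.8), against 5 of the 157 loci strong in both lines (3.18%, 1.04 to 7.28). Of the 403 loci strong in H69M alone with a weaker H69 peak, 30 lay there, and of all 709 loci 78 did. These classes are defined by whether H69 listed a peak, and H69 listed few peaks near the stretch (2.06% of its list). How much of the contrast follows from that definition was not tested. Among the 10 highest strong H69M peaks with no H69 peak within 5 kb were several within 2 Mb of the stretch. Examples are the peaks at 91760916 on chromosome 2, with a score of 1644.18, and at 33942573 on chromosome 16, with 1116.54. The chromosome 4 block from 49281042 and the chromosome 2 peak at 91775038, both described above, lay 286987 and 472422 bp from their stretches. Near the outermost peak of a chromosome, within 2 Mb, lay 172 strong H69M peaks (17.3%, 15.0 to 19.8, with 14.7% over the list) and 40 strong H69 peaks (14.8%, 10.8 to 19.6, with 12.6% over the list). On chromosomes 13, 14, 15, 21 and 22 the peak-free stretch ran from base 1 to the first peak. The same peaks there enter both counts. The 2 highest of the H69M peaks with no H69 peak within 5 kb, on chromosome 7 at 56437924 and chromosome 2 at 162135057, scored 1805.11 and 1800.85 in H69M, and the nearest H69 peak lay 34565 and 201471 bp away. The chromosome 7 peak was also within 2 Mb of the peak-free stretch, at 1610711 bp, and the chromosome 2 peak was not, at 66733550 bp.

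The 3 arrays held the highest scores of both lists. They contained 15.4% of the covered length of strong peaks in H69M and 24.0% in H69. Of the 20 highest peaks, 11 in H69M and 17 in H69 lay in them, as did all 10 peaks at or above 3100 in H69M and all 3 in H69. The windows were chosen with earlier results of these data known, so these numbers describe that choice and test nothing. Every strong peak in the arrays was overlapped by a peak of the other line, 51 of 51 in H69M and 25 of 25 in H69. Over the whole lists the shares were 18.9% in H69M and 32.6% in H69. The array peaks were wide, with median widths of 2347 bp in H69M and 2661 bp in H69. Wide peaks in windows that both lines cover meet easily, so an overlap of 1 bp says little here.

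The array on chromosome 8 is known for copies of REXO1L, a family related to an RNA exonuclease gene, and RefSeq lists 11 REXO1L pseudogenes on this chromosome. It held 50 H3K27me3 peaks in H69M, 37 of them strong, and 80 in H69, 21 of them strong. They covered 125 kb in H69M and 97.02 kb in H69, a ratio of 1.29, where the whole lists, with 7958 kb in H69M and 4908 kb in H69, gave 1.62. In this array 96.1 kb were covered in both lines. That is 76.7% of the H69M and 99.0% of the H69 covered length. The larger block, from 86726450 to 86841005, was covered over 90.6% of its length in H69M and 67.8% in H69. Its profile matched itself best at a shift of 27.5 kb in H69M (r = 0.37) and 27.7 kb in H69 (r = 0.34), and the next highest maxima were at 24.6 and 3 kb in H69M (r = 0.25 and 0.19) and at 28.7 and 39.5 kb in H69 (r = 0.31 and 0.21). No H3K27ac peak lay in the window in either line.

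The order of the lines was not the same along this array. At 86745289 to 86750791 both lines had the same score, 3100 in H69M and 3100 in H69. From 86561913 to 86576434 the widest peak of all, 14522 bp, scored 695.04 in H69M, and the highest of the 5 H69 peaks under it scored 3100. From 86726450 to 86732383 the score was 3100 in H69M, and the highest H69 peak under it scored 1442.71.

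The array on chromosome 18 is known for copies of the elongin A gene family, and RefSeq lists the pseudogenes ELOA3DP and ELOA3BP on this chromosome, along with ELOA2. It held 13 peaks in H69M and 16 in H69, 4 of them strong in each line. They covered 16.7 kb in H69M and 17.9 kb in H69, a ratio of 0.935, and this was the array with the smaller covered length in H69M. The highest peak was at 44551913 to 44557581 in H69M, with 2715.65, and at 44545970 to 44551871 in H69, with 3070.95. No H3K27ac peak lay in the window in either line, and the flanks of the same length held 0.218 kb of H3K27me3 in H69M and 1.10 kb in H69 on the upper side and none in either line on the lower side.

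The array on chromosome 1 is known for the genes of 5S ribosomal RNA, a part of the large ribosomal subunit that RNA polymerase III makes, and RefSeq lists RNA5S1 to RNA5S17 on this chromosome. H69M had 15 peaks, 10 of them strong, with scores of up to 1696.37, and H69 had 21 peaks, 0 of them strong, with scores of up to 259.19. The covered length was 38.3 kb in H69M and 22.6 kb in H69, a ratio of 1.70 and so close to the 1.62 of the whole lists, and 99.7% of the H69 covered length was also covered in H69M. H3K27ac was listed in both lines, as 1 peak of 72.34 over 7.55 kb in H69M and as 5 peaks of up to 139.03 over 13.4 kb in H69.

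In H69 the chromosome 1 profile repeated at evenly spaced shifts of 2.2, 4.5, 6.7 and 8.9 kb (r = 0.49, 0.46, 0.52 and 0.52). In H69M, where broad peaks ran together, the highest maximum was at 11.1 kb (r = 0.17), a shift at which H69 also had one (r = 0.36). These correlations describe 1 library per line over bins that share its depth. The number of copies in each line and the placement of reads among near-identical copies cannot be told apart from the level of the mark in these lists.

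**Figure D5:**
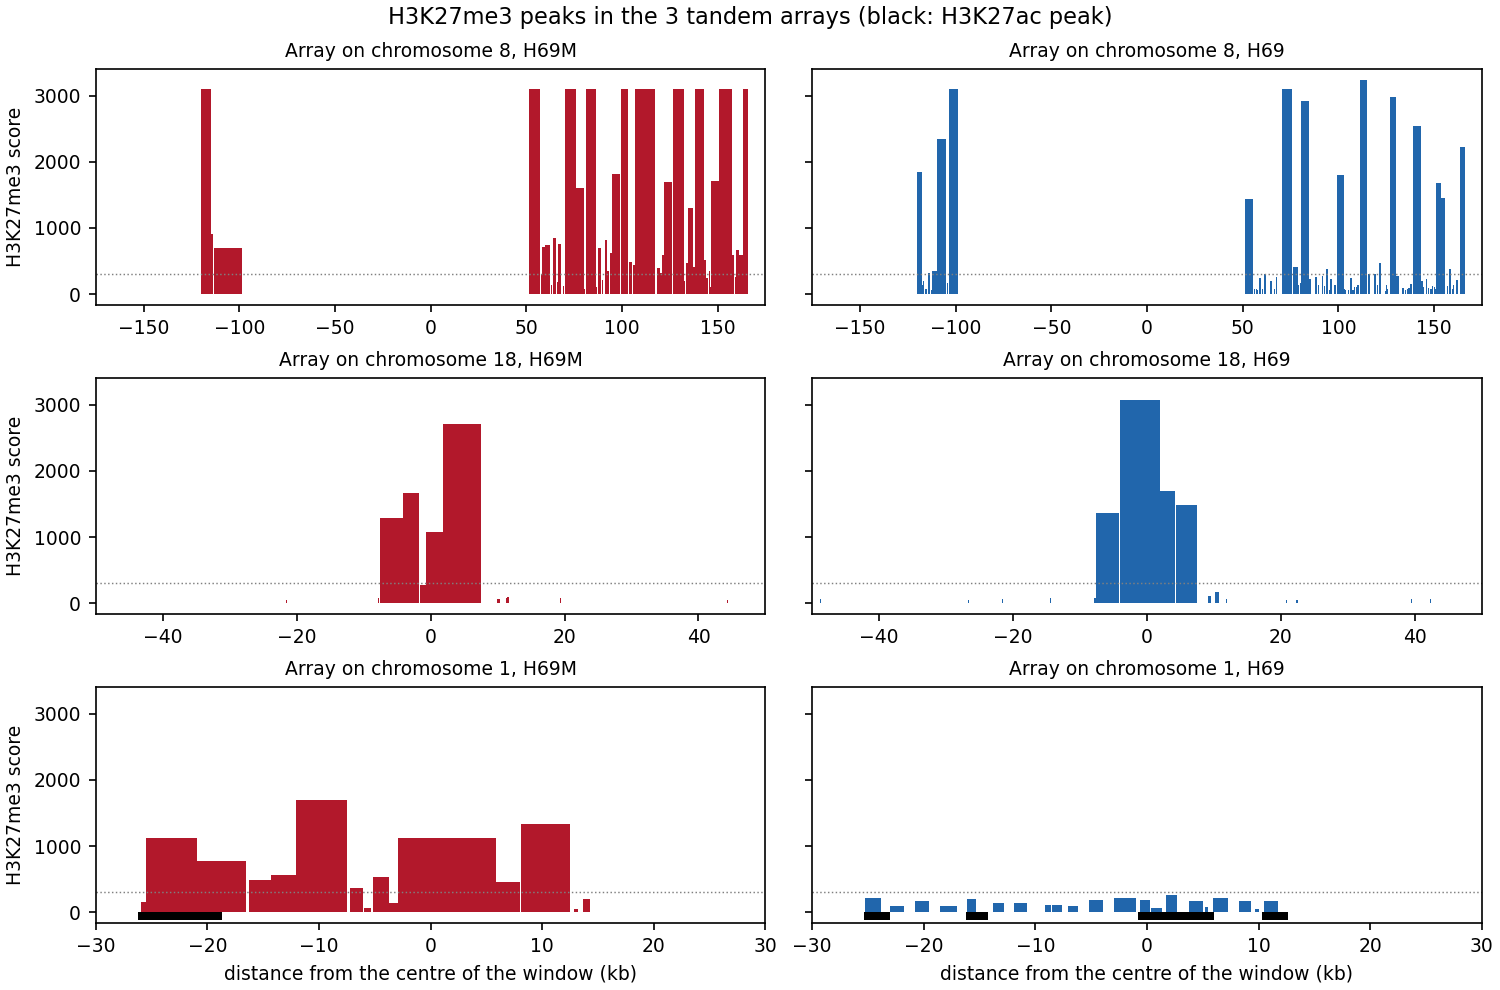
H3K27me3 peaks in the windows of the 3 arrays, as bars from 0 to the score of each peak over its width, against the distance in kb from the centre of the window, with H69M on the left and H69 on the right; the dotted line is the limit of 300 and black bars below 0 are H3K27ac peaks. In the chromosome 1 array the highest bar reaches 1696.37 in H69M and 259.19 in H69.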

How the data were processed

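H3K27me3 and H3K27ac were measured by ChIP-seq with 1 library per mark and line. Bowtie2 and SAMtools 0.1.19 were used on hg19, per the submitters' processing notes. The deposited lists give each peak's position, a name with the word MACS and a score, and the authors' score is used here only to describe, rank and filter peaks. For the caller, the version, the settings and any use of input are not given in these sources. Nothing defines the score, whose values run like a scaled negative log p-value. Positions were converted to 1-based. Peaks of chromosomes 1 to 22 and X were used, and overlap meant 1 bp or more. Exact 95% intervals of shares (Clopper-Pearson) came from SciPy 1.17.1 with Python 3.11.15. The lists hold no read counts, so depth is unknown.

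The members, windows and gene lists were chosen with earlier results of these data known. Regions were named by fixed rules, the 10 highest outside the arrays per line, the 5 highest per array, under H3K27ac and by width, the 5 loci with most strong peaks, and strong peaks with no counterpart within 5 kb (10 in H69M). Not every region of these sets is described above. Other loci and genes were named after their values were seen, as were the blocks for which spacing is given. Planned counts at promoters and most gene lists were not used here, since the gene table is of GRCh38.p14. Overlap arithmetic was tested on simulated data. Alternatives are given at the end.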

Additional observations from a re-analysis of the deposited data

Results flagged for a closer look

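Outside chromosomes 1 to 22, X and Y, the sequences of the build that are not whole chromosomes (unplaced contigs here) held 63 strong H3K27me3 peaks in H69M, of 607 peaks listed on them, and 3 in H69, of 65 listed. The H69M number was flagged because these sequences enter none of the comparisons above and any number above 3 was set to be flagged. Strong peaks were 10.4% of the contig peaks in H69M and 4.62% in H69. In the lists of chromosomes 1 to 22 and X they were 2.63% in H69M and 1.25% in H69. The 63 H69M peaks lay on 23 contigs and reached a score of 3100, against 702.55 in H69. Their cause was not tested.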

How the results depend on the processing

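Of 59 alternative values, 38 stayed within the main value's interval or within 1.5 times the main count or ratio, and 21 moved. A score limit of 200 gave 1948 strong peaks in H69M and 620 in H69, and a limit of 500 gave 452 and 90. The share overlapped by the other line was 72.95% in H69M and 95.8% in H69 at 200, and 89.2% and 100% at 500. It was 92.96% for the 270 highest H69M peaks, 88.2% in H69M once peaks up to 2 Mb from the peak-free stretch were left out, 57.8% in H69M and 94.1% in H69 where 50% of the peak had to be covered, and 87.9% and 100% for a peak within 1000 bp. With the middle base alone, an alternative chosen after seeing the data, it was 59.05% and 92.6%. The share of strong H69 peaks under H3K27ac of H69 was 4.19% at 200, inside the main interval. The share under H3K27ac of the same line within 1000 bp was 11.2% in H69M and 4.82% in H69. The share near the peak-free stretch was 7.14% in H69M at 1 Mb, and 16.5% in H69M and 10.7% in H69 at 5 Mb. Ratios of array coverage and locus counts stayed within their limits. No paired analysis was possible because each group holds 1 sample. Counts at promoters were not run.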
